A study of Mus musculus with 22 samples.

Results

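Gfap, Vim, Nes and Synm encode intermediate filament proteins of hypothalamic glia, and they were chosen by name, with earlier results of these data known. They are 4 of the 20668 genes counted in nuclei and 4 of the 16304 genes counted in whole cells. Every one of the 4 symbols had a single entry in both count tables. All mice were male, leptin-deficient obese ob/ob mice of 11 weeks, so the controls carry the same mutation as the treated animals. Treated mice were given 3 µg of recombinant human fibroblast growth factor 1 (FGF1) into a brain ventricle (intracerebroventricular, icv) in 1 dose. Vehicle mice were given phosphate-buffered saline and were pair-fed to the FGF1 mice. Nuclei were isolated from frozen hypothalamic punches of 3 FGF1 and 3 vehicle mice on Day 1 and of 2 FGF1 and 2 vehicle mice on Day 5. Whole cells came from other mice, 6 with FGF1 and 6 with vehicle, whose hypothalamus was dissociated with enzymes on Day 5. Those mice came from another supplier (Janvier Labs) than the mice used for nuclei (Jackson Laboratories) and were kept on another chow. Their tissue was a triangular piece of the mediobasal hypothalamus, and the authors had removed neurons from that dataset. Each library came from 1 mouse. The comparisons ask whether icv FGF1 changed the filament genes in the glia next to the third ventricle.

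Intermediate filaments are rope-like cytoskeletal polymers that give a cell its mechanical resistance. Vimentin (Vim) is the filament protein of immature glia and stays on in tanycytes, ependymal cells and vascular cells. Glial fibrillary acidic protein (Gfap) is the classic filament of mature astrocytes and rises when astrocytes become reactive. Nestin (Nes) is a marker of neural progenitors and also of tanycytes and endothelial cells, and it does not polymerise without a partner such as vimentin. Synemin (Synm) likewise needs a partner and links filaments to membrane-bound protein complexes. Tanycytes are elongated glia of the floor and lower walls of the third ventricle, and ependymal cells are the ciliated cells of the ventricular lining.

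In the GRCm38 build, with GENCODE vM21 annotation, Gfap lies on the minus strand at chr11:102887336-102900912, where Gm26668 overlaps it on the other strand. Vim lies at chr2:13573927-13582826 and Nes at chr3:87971078-87980451, both on the plus strand and both without an overlapping gene. Synm lies on the minus strand at chr7:67730160-67759742 and is overlapped on the other strand by Ttc23 and Gm45102. Whether the counting used strand is not given in the sources used here, so reads of Gfap and Synm may include some of these genes. The promoter windows of the 3 members that moved in these data are shown from RefSeq (GRCm38.p6), 250 bases before to 50 bases after the annotated start, 5′ to 3′ on the strand of the gene. The windows span chr11:102897151-102897450 for Gfap, chr2:13574061-13574360 for Vim and chr3:87970843-87971142 for Nes. Capitals mark the only match to the motifs searched on both strands, which were AP-1 (TGANTCA), CRE (TGACGTCA) and STAT (TTCNNNGAA).
Gfap promoter: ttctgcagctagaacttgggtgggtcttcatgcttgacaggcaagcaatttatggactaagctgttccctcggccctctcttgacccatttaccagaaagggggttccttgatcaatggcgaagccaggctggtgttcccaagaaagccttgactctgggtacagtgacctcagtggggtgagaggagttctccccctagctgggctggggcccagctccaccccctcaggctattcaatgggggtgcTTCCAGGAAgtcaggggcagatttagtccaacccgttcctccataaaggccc
Vim promoter: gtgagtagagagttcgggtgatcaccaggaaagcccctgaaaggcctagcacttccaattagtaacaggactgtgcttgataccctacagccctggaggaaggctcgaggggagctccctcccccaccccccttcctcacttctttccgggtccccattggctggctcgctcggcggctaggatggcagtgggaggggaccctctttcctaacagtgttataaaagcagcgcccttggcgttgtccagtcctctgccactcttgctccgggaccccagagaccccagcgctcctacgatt
Nes promoter: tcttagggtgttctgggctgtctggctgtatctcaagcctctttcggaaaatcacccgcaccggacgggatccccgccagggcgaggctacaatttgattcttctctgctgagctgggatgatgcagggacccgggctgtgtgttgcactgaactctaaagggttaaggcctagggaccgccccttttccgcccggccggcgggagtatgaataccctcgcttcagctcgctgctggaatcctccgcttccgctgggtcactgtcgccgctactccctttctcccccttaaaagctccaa
The match is the STAT letters TTCCAGGAA at bases 249 to 257 of the Gfap window, across the annotated start. Of the 32851 promoter windows of this length, 8.3% held the STAT letters, 7.81% the AP-1 letters and 1.79% the CRE letters. The Synm window, at chr7:67759693-67759992, held none of the 3 motifs.

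The 10 libraries of nuclei held 2721087 to 16345981 unique molecular identifiers (UMIs) and the 12 libraries of whole cells 2652897 to 11866269, with medians of 2029 to 3986 UMIs per nucleus and 1118 to 2090 UMIs per cell. On Day 1 the medians were lower in every FGF1 library than in every vehicle library, at 2029 to 2816 against 3178.5 to 3776 UMIs per nucleus. Shares of nuclei are therefore given below at equal depth, unless they are called unthinned. FGF1 replicate 1 also stood apart, with 2.73% ribosomal UMIs against 1.01 to 1.68% in the other Day 1 libraries. Day 1 results of Vim and Nes in the 3 glial types and of Gfap in astrocytes are also given without it. The other cell types and the listed genes are given with it only. A barcode sequence found in 2 or more libraries of the same dataset was carried by 638 nuclei and 3616 cells. Nuclei carried the authors' cell type, and numbered clusters of whole cells were named from marker genes, which gave astrocytes (clusters 1 and 4), tanycytes (clusters 0, 7 and 10) and ependymal cells (cluster 6). The marker sums followed the names: astrocyte markers summed to 6129 to 14110 CPM (UMIs of a gene scaled to a common library total) in Day 1 astrocyte nuclei and 14393 to 19451 CPM in whole-cell astrocytes. In Day 1 the sums of a type's own markers were lower in FGF1 than in vehicle mice in all 3 glial types, at 6129 to 7701 against 7735 to 14110 CPM in astrocytes, 911 to 1348 against 1332 to 1940 CPM in tanycytes and 3016 to 4467 against 6187 to 9023 CPM in ependymal nuclei. Tanycyte nuclei of FGF1 mice also held fewer ependymal marker UMIs, with sums of 206 to 290 against 1304 to 1612 CPM. The part of these differences in the results below was not tested, and summed counts cannot tell a change of RNA in each cell from a change in which cells make up a type.

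In vehicle mice, Gfap was highest in cluster 4 astrocytes of the whole-cell data, at 1092 ± 619 CPM (TMM-scaled CPM, SD, n = 6), and 403 to 2109 CPM in single mice. Gfap is also the gene with the highest fold in that cluster, so this order follows from how the cells were clustered. The remaining clusters lay far lower: cluster 0 tanycytes held 64.4 ± 24.7 CPM, microglia 46.8 ± 44.0 CPM, cluster 1 astrocytes 46.4 ± 12.3 CPM and ependymal cells 36.0 ± 10.7 CPM. These neighbours did not differ beyond their spread. Smooth muscle cells and macrophages, with 2 and 8 Gfap UMIs in all, lay among them. Tanycyte clusters 7 and 10 were lower still, at 20.2 ± 17.6 and 18.7 ± 2.89 CPM. In Day 1 vehicle nuclei the mean Gfap level was 435 ± 149 CPM in astrocytes, 412 ± 298 CPM in ependymal nuclei and 298 ± 365 CPM in tanycytes. The 3 types overlapped, as vehicle replicate 3 was high in tanycytes (718 CPM) and in ependymal nuclei (753 CPM).

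Vim had another order. Among vehicle whole cells, ependymal cells led with 611 ± 82.6 CPM, followed by smooth muscle cells (550.3 ± 82.0 CPM, 2 mice), endothelial cells (394 ± 98.3 CPM) and the tanycyte clusters 7, 10 and 0 (372 ± 120, 357 ± 91.3 and 349 ± 57.3 CPM). Ependymal and smooth muscle cells overlapped, and endothelial cells and the 3 tanycyte clusters did not differ beyond their spread. Astrocytes were low, with 82.4 ± 51.6 CPM in cluster 4 and 22.8 ± 2.28 CPM in cluster 1. Day 1 vehicle nuclei gave the same sequence of glia, with 453 ± 144 CPM in ependymal nuclei, 209 ± 80.6 CPM in tanycytes and 39.4 ± 11.0 CPM in astrocytes.

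Nes was led by endothelial cells (170.5 ± 26.0 CPM), above pericytes (78.9 ± 30.6 CPM), smooth muscle cells (0 and 140 CPM in 2 mice, 3 UMIs), ependymal cells (68.7 ± 16.8 CPM) and tanycyte clusters 7, 0 and 10 (62.3 ± 23.9, 59.8 ± 13.1 and 53.8 ± 33.7 CPM). Vascular leptomeningeal cells (54.1 ± 36.8 CPM, 4 mice) lay between clusters 0 and 10. All of these overlapped, except that endothelial cells were above all but 1 smooth muscle mouse. Astrocytes held 0 to 10.9 CPM in cluster 1 and 0 to 10.3 CPM in cluster 4, from 47 and 4 UMIs in all. Synm was highest in ependymal cells (299 ± 43.9 CPM), then smooth muscle cells (182 ± 59.0 CPM, 2 mice), endothelial cells (122 ± 19.5 CPM) and cluster 0 tanycytes (105 ± 27.0 CPM), of which smooth muscle overlapped endothelial cells and endothelial cells overlapped cluster 0. Cluster 1 astrocytes had 13.7 ± 4.48 CPM of Synm. The plot of vehicle levels by cluster shows these 4 orders side by side.

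**Figure D1:**
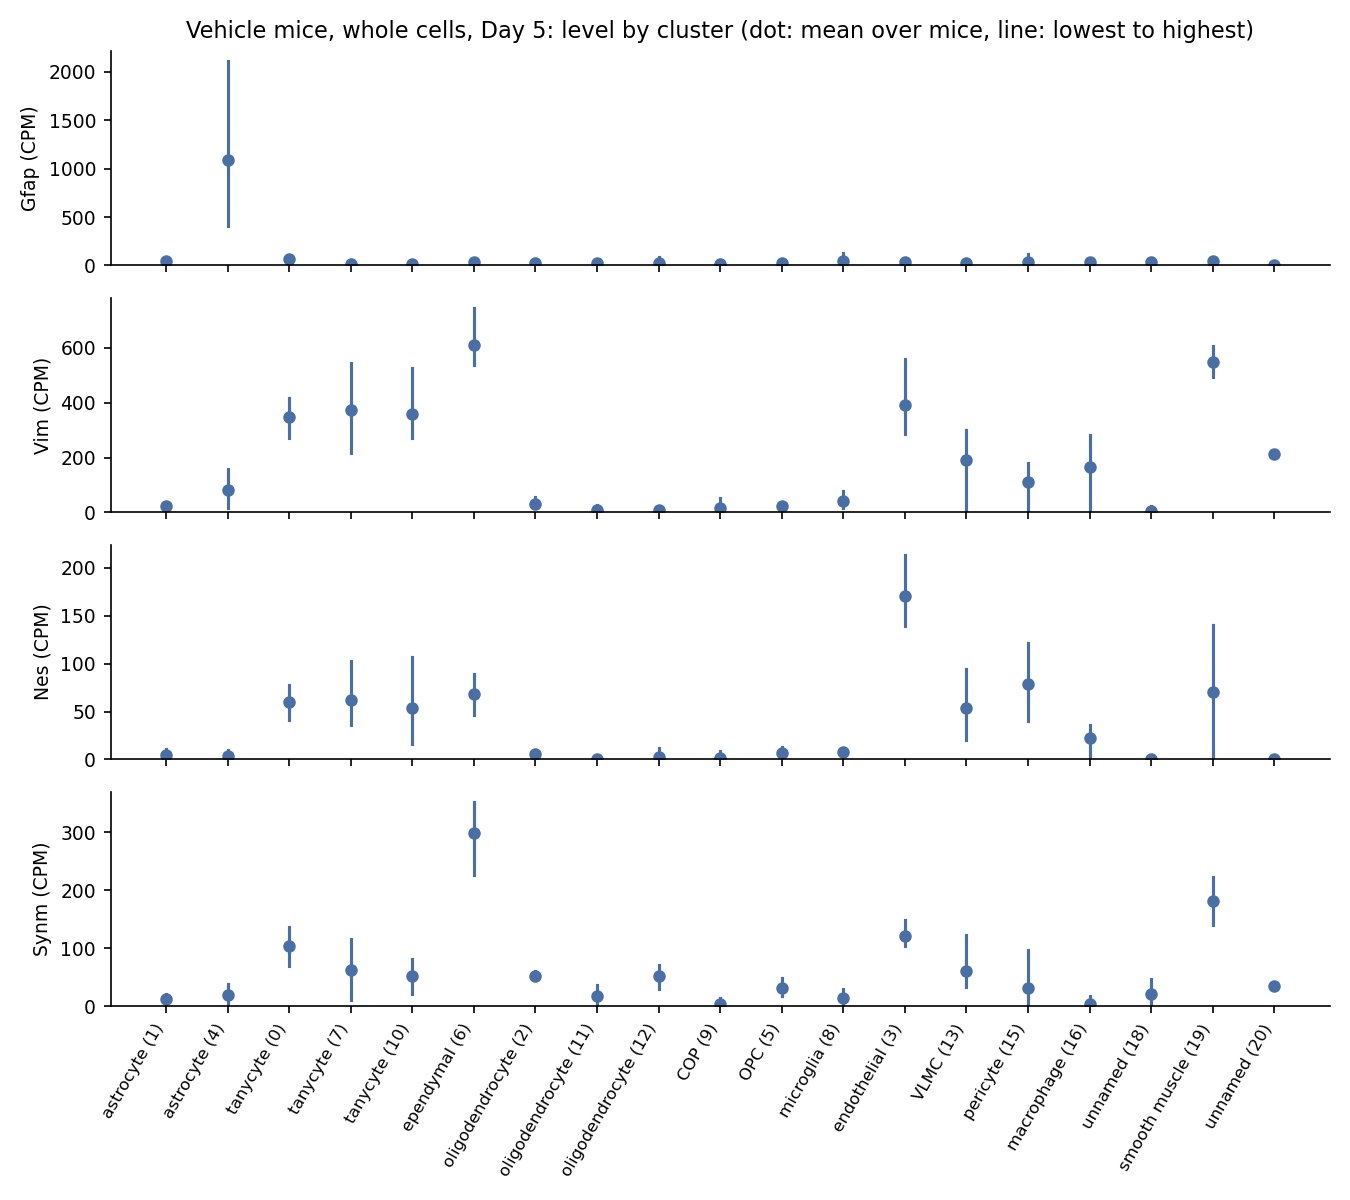
Level of Gfap, Vim, Nes and Synm (TMM-scaled CPM, vertical axes) in each whole-cell cluster (horizontal axis, name and cluster number) of vehicle mice on Day 5. Dots are means over mice and lines run from the lowest to the highest mouse; Gfap stands out in cluster 4 astrocytes (1092 CPM), Vim and Synm in ependymal cells (611 and 299 CPM) and Nes in endothelial cells (170.5 CPM).

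Across the 19 whole-cell clusters with a value, Vim had the mean vehicle profile most like that of Anxa5, Anxa2 and Tspo (Pearson's r of log2(CPM + 1) 0.93, 0.93 and 0.91), and Synm that of Lmna, Psmc3ip and 2900026A02Rik (0.86, 0.85 and 0.82). For Nes the nearest genes were Rab3d, Usp18 and Arhgap6 (0.91, 0.90 and 0.87), and for Gfap Agpat3, Dtx1 and Kifc2 (0.84, 0.82 and 0.81). Among the members, Vim correlated with Nes at 0.72 and with Synm at 0.69, whereas Gfap correlated with Vim, Nes and Synm at 0.14, 0.16 and 0.11. In nuclei Gfap correlated with Vim at 0.69, with Nes at 0.72 and with Synm at 0.84, and Vim with Nes at 0.63 and with Synm at 0.79. In the 27 types of nuclei, Gfap was nearest to Ifit3b, C4b and Lfng (0.91 each), Vim to Hist1h2bc, Smo and Ppp1r3c (0.88, 0.86 and 0.84), Nes to Gm20383, Gas2l2 and Acsm5 (0.97, 0.96 and 0.96) and Synm to Arid5a, Fas and Metrn (0.95, 0.95 and 0.94). These correlations are over types that share libraries, and most neuron types held almost no UMI of Nes or Synm.

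On Day 1, Vim and Nes were higher in FGF1 than in vehicle mice in astrocyte, tanycyte and ependymal nuclei, all 6 at a false discovery rate (FDR) below 0.05 in edgeR's quasi-likelihood test. Gfap did not pass the test in any of the 3 types, and Synm had too few UMIs to be tested. That made 6 of 9 tested member-by-type combinations, all in the upward direction. By comparison, 1.39% of the genes tested in astrocyte nuclei, 5.38% in tanycyte nuclei and 10.2% in ependymal nuclei were called higher with FGF1, and 0.165%, 3.76% and 8.86% were called lower.

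Vim in astrocyte nuclei was 1075, 654 and 613 CPM in FGF1 replicates 1, 2 and 3 and 29.3, 51.1 and 37.7 CPM in vehicle replicates 1, 2 and 3. The lowest FGF1 mouse was well above the highest vehicle mouse, with a log2 fold change of 4.20 ± 0.60 (SE, n = 3 and 3, FDR = 0.00575). After every nucleus was thinned to 1000 UMIs, 40.7 ± 2.51% of astrocyte nuclei of FGF1 mice and 3.93 ± 0.774% of those of vehicle mice still had a Vim UMI (unthinned 65.1% and 11.7%). Types low in Vim also held more of it with FGF1 after the same thinning, but at a far lower share, with 5.57% against 0.698% of oligodendrocyte nuclei (median depths of 2420.5 to 4494.5 UMIs per mouse, beside 2386 to 3345.5 in astrocytes) and 4.81% against 0.501% of the neuron nuclei that the authors could not map to a type. Nes in astrocytes was 53.3, 57.3 and 44.6 CPM with FGF1 and 0, 3.65 and 5.39 CPM with vehicle, again without overlap. Its log2 fold change was 3.93 ± 0.67 (FDR = 0.0151), but the vehicle value rests on 3 UMIs in 250 nuclei, and the ratio of summed UMIs was 15.1 with a 95% counting interval of 4.99 to 74.8. Gfap in astrocytes was 3443, 2546 and 1633 CPM with FGF1 and 323, 378 and 604 CPM with vehicle. The groups did not overlap, and 72.3 ± 9.52% against 23.6 ± 4.19% of thinned nuclei held a Gfap UMI (unthinned 89.9% and 42.7%), yet the log2 fold change of 2.44 ± 0.61 had an FDR of 0.0899. DESeq2 on the same counts gave Gfap an adjusted p of 4.55e-05, and without FGF1 replicate 1 edgeR gave it an FDR of 0.0416 (log2 fold change 2.23). Without the nuclei whose mitochondrial or ribosomal share exceeded the limit in the study's methods, the log2 fold change of Gfap was 1.87 (FDR = 0.0104), that of Vim 3.60, and Nes had too few UMIs for a test. Tanycyte markers, of which 1 of 10 had no UMI in either group, summed to 113 to 518 CPM in these astrocytes with FGF1 and 136 to 292 CPM with vehicle, and their part in the Vim and Nes values was not tested.

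The astrocyte calls of Vim and Nes ended when the deposited batch, which holds 1 FGF1 and 1 vehicle mouse each, was added as a block (FDR = 0.0713 and 0.0730, with log2 fold changes of 4.20 and 3.92). The log2 fold changes were nearly the same without the block, at 4.20 and 3.93. In astrocyte nuclei, same-batch mice correlated in their deviations from the group mean at -0.66, 0.07 and -0.58. What a batch stands for is not given in the sources used here. Without vehicle replicate 1 the FDR was 0.104 for both at log2 fold changes of 4.09 and 3.57, and Nes also missed the threshold without FGF1 replicate 1 (log2 fold change 3.91, FDR = 0.0584) and without vehicle replicate 2 (0.123). Without FGF1 replicate 1, Vim of astrocytes had a log2 fold change of 3.95 (FDR = 0.00170), Nes of tanycytes 2.13 (FDR = 0.0262), and Vim and Nes of ependymal nuclei 2.55 and 3.48 (FDR = 0.000287 and 0.00153).

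In tanycyte nuclei Vim and Nes were again free of overlap between the groups. Vim of the 3 FGF1 mice ranged from 860 to 2592 CPM (median 1067) and the 3 vehicle mice from 161 to 302 CPM (median 164), with a log2 fold change of 2.79 ± 0.50 (FDR = 0.00449). FGF1 replicate 1 was the highest, and without it the log2 fold change was 2.20 (FDR = 0.00315). Thinned tanycyte nuclei held a Vim UMI in 68.1 ± 15.7% with FGF1 and 19.8 ± 6.96% with vehicle (unthinned 90.0% and 47.8%). Nes in tanycytes was 91.7 to 159 CPM in FGF1 mice and 21.1 to 35.0 CPM in vehicle mice, a log2 fold change of 2.26 ± 0.45 (FDR = 0.00812). Nes of tanycytes had an adjusted p of 0.0623 with DESeq2, and without vehicle replicate 1 the FDR was 0.0565 for Nes and 0.0708 for Vim, while without vehicle replicate 2 it was 0.0516 for Nes. Gfap in tanycytes was 527 to 814 CPM with FGF1 and 63.0, 112 and 718 CPM with vehicle, so that 1 vehicle mouse, replicate 3, reached into the FGF1 range. The log2 fold change was 1.25 ± 0.70 (FDR = 0.305), and without vehicle replicate 3 it was 2.97 (FDR = 0.00570).

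Ependymal nuclei were few, 59 from FGF1 and 47 from vehicle mice. Their Vim level was 2233 to 2649 CPM in FGF1 mice and 322 to 608 CPM in vehicle mice, a log2 fold change of 2.44 ± 0.34 (FDR = 0.000102). After thinning 85.0 ± 3.54% against 35.6 ± 11.5% of nuclei held a Vim UMI (unthinned 98.1% and 82.6%). Nes was 193 to 476 CPM with FGF1 and 0 to 48.3 CPM with vehicle, from 73 and 6 UMIs, with a log2 fold change of 3.43 ± 0.57 (FDR = 0.000543). Both calls held with the batch as a block. Gfap in ependymal nuclei was 351 to 965 CPM against 208 to 753 CPM, with overlapping groups, a log2 fold change of 0.73 ± 0.51 and an FDR of 0.370. Without vehicle replicate 3 the log2 fold change was 1.54 (FDR = 0.0169). Synm went without a test in all 3 types: it summed to 22 against 11 UMIs in astrocytes, 12 against 14 in tanycytes and 11 against 20 in ependymal nuclei (FGF1 against vehicle), and the 95% counting intervals of the 3 ratios, 0.520 to 2.56, 0.208 to 1.14 and 0.230 to 1.16, all hold 1. In ependymal nuclei the Synm level was 14.9 to 73.3 CPM with FGF1 and 73.8 to 128 CPM with vehicle, so that the groups lay apart by less than 1 CPM.

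**Figure D2:**
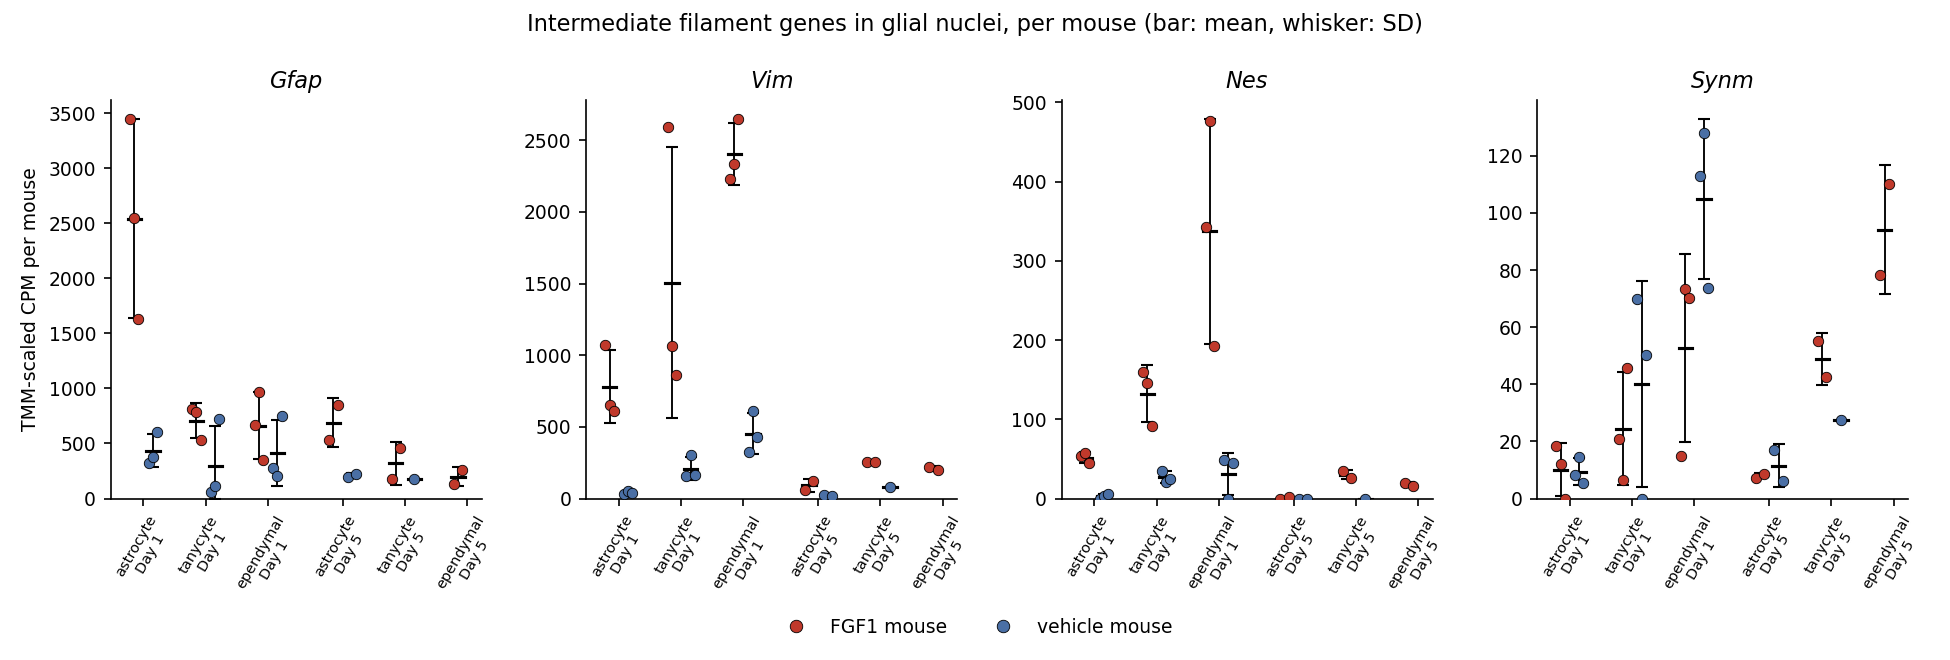
TMM-scaled CPM per mouse (vertical axes) of Gfap, Vim, Nes and Synm in astrocyte, tanycyte and ependymal nuclei on Day 1 and Day 5 (horizontal axes), with FGF1 mice in red, vehicle mice in blue, the mean as a bar and the SD as a whisker; mice with under 10 nuclei of a type are not drawn. On Day 1 the FGF1 points of Vim and Nes lie above all vehicle points in each type, Gfap does so in astrocytes, and Synm points of the groups are mixed in astrocytes and tanycytes.

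Outside the 3 ventricular and astrocytic types, oligodendrocyte nuclei of Day 1 had more Vim UMIs in FGF1 mice, at 87.3, 48.3 and 39.0 CPM against 11.1, 3.09 and 7.71 CPM (log2 fold change 3.15 ± 0.55, FDR = 0.0358), where 0.167% of tested genes were called higher. In n29 neurons, which express Nr5a1 and Adcyap1, Gfap was 60.04, 50.6 and 24.5 CPM with FGF1 and 1.79, 7.25 and 5.71 CPM with vehicle (log2 fold change 3.17 ± 0.52, FDR = 0.0330), where 0.0833% of genes were called higher. In neurons that the authors could not map to a published type, Gfap was 31.6 to 60.9 CPM against 2.87 to 7.19 CPM and Vim 37.3 to 73.0 CPM against 3.28 to 6.64 CPM (log2 fold changes 3.38 ± 0.39 and 3.17 ± 0.38, both at an FDR of 0.0572). Neurons are not known to make Gfap, and droplets can hold free RNA from other cells. Over all neuron and unmapped nuclei, unthinned, 13.2, 10.8 and 7.64% held a Gfap UMI in FGF1 replicates 1, 2 and 3 and 1.06, 1.88 and 3.12% in vehicle replicates 1, 2 and 3. Unthinned astrocyte nuclei of the same FGF1 mice held one in 94.8, 92.0 and 82.7%. Thinned to 1000 UMIs, unmapped neurons held a Gfap UMI in 6.04, 3.96 and 2.75% with FGF1 and 0.269, 0.407 and 0.681% with vehicle. Thinned astrocyte nuclei of the FGF1 mice held a Gfap UMI in 80.7, 74.2 and 62.0%. For Vim the unthinned shares of neuron and unmapped nuclei were 14.7, 9.15 and 9.81% with FGF1 and 2.34, 2.65 and 2.52% with vehicle, beside 69.1, 62.8 and 63.5% of the astrocyte nuclei of the FGF1 mice. The number of Vim UMIs per Gfap UMI was 1.14, 0.777 and 1.19 in the neuron nuclei of the FGF1 mice, 0.312, 0.257 and 0.375 in their astrocytes and 0.575, 0.495 and 0.936 in their astrocytes, tanycytes and ependymal nuclei pooled. The 10 astrocyte markers summed to 575 to 745 CPM in unmapped neurons of FGF1 mice and 704 to 1193 CPM in those of vehicle mice, to 393 to 551 against 745 to 1176 CPM in n29 neurons, and to 439 to 705 against 858 to 1278 CPM in oligodendrocytes, so that the highest FGF1 mouse was below the highest vehicle mouse each time. These markers were also lower with FGF1 in astrocyte nuclei themselves, so their sums alone do not measure how much astrocyte RNA was present. Tanycyte markers summed to 62.2 to 240 against 110 to 134 CPM in unmapped neurons and to 92.8 to 234 against 74.1 to 162 CPM in oligodendrocytes. Whether the filament UMIs in neurons and oligodendrocytes came from free RNA was not tested.

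On Day 5, the nuclei gave smaller differences. Of the 3 glial types only astrocytes could be tested, because fewer than 2 vehicle mice had 10 or more tanycyte or ependymal nuclei. Neither of the 2 tested members, Vim and Gfap, passed an FDR below 0.05, although both had an unadjusted p under 0.05 and DESeq2 called Gfap (adjusted p = 0.0108) and gave Vim no adjusted p. Vim in astrocytes was 58.6 and 124 CPM in FGF1 mice and 18.6 and 23.0 CPM in vehicle mice, with a log2 fold change of 2.01 ± 0.48 (n = 2 and 2, edgeR FDR = 0.0546). Gfap was 530.3 and 849.8 CPM against 196 and 224 CPM, with a log2 fold change of 1.61 ± 0.40 (edgeR FDR = 0.0696). In both genes the groups did not overlap, in a comparison in which 0.0354% of genes were called higher and 0.589% lower. RLE scaling gave Vim an FDR of 0.0403. Leaving out any of these mice leaves 1 mouse in an arm, which the fit assumes to vary like the other arm, so the FDRs obtained that way (0.000269 for Vim and 0.000745 for Gfap without vehicle replicate 38, 0.0302 for Vim without FGF1 replicate 37) are given as values and not as support. Nes had 2 UMIs in 494 astrocyte nuclei of FGF1 mice and none in 241 of vehicle mice, where a count of 0 allows a share of nuclei with a UMI of up to 1.24% (counting error only). In tanycytes, Vim was 255 CPM in each of the 2 FGF1 mice and 82.1 CPM in the single vehicle mouse with 14 tanycyte nuclei, and Nes was 26.1 and 34.5 CPM against 0. A count of 0 in so few nuclei allows a share of up to 21.4%. Gfap of tanycytes summed to 166 against 13 UMIs, a ratio of 1.77 with a 95% counting interval of 1.01 to 3.40. Unmapped neurons were tested as well: Gfap was 4.77 and 13.4 CPM against 2.48 and 3.43 CPM (log2 fold change 1.75 ± 0.58, FDR = 0.449) and Vim 3.34 and 8.53 CPM against 2.89 and 3.43 CPM (0.99 ± 0.54, FDR = 0.544), neither of which passed.

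An interaction term in a model of all nuclei libraries tested whether FGF1 acted differently on Day 1 and Day 5. None of 6 tests passed, and DESeq2 also called 0, while 1 of the 6 had an unadjusted p under 0.05 in edgeR. That was Vim in astrocytes, whose Day 5 effect was lower than its Day 1 effect by a log2 difference of -2.20 ± 0.75 (edgeR FDR = 0.483). For Gfap and Nes in astrocytes the log2 differences were -0.83 ± 0.77 and -1.28 ± 3.36 (edgeR FDR = 0.865 and 0.970). For tanycytes the differences were -1.28 ± 0.96 for Vim, 3.02 ± 2.97 for Nes and -0.55 ± 1.41 for Gfap (FDR of at least 0.713). This fit assumes the lone Day 5 vehicle mouse to vary like the other groups, and ependymal nuclei could not be fitted. The smaller values on Day 5 were not separated from the spread between mice. All Day 1 nuclei lay in deposited batches 3, 4 and 5 and all Day 5 nuclei in batches 1 and 2. Day and batch can therefore not be told apart.

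In the whole cells of Day 5, the filament gene called in the astrocyte, tanycyte and ependymal clusters was Vim. It passed the test in all 3 tanycyte clusters and in cluster 1 astrocytes, 4 calls among 16 tested combinations of member and cluster. It did not pass in cluster 4 astrocytes or in ependymal cells. Clusters 1 and 4 differ in Gfap itself, so a test of Gfap within each cannot show whether astrocyte Gfap changed. With both merged, a choice made after the data were seen, Gfap passed (log2 fold change 2.21, edgeR FDR = 0.0226). The Vim of tanycytes lay far above that of cell types low in Vim, while the Vim of cluster 1 astrocytes did not. The tanycyte clusters were called at backgrounds of 2.64% (cluster 0), 0.968% (cluster 7) and 0.973% (cluster 10) of genes higher with FGF1, and the astrocyte clusters at 0.221% (cluster 1) and 0.218% (cluster 4).

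Cluster 0, the largest tanycyte cluster with 9509 cells, had Vim levels of 603 to 904 CPM (median 713) in the 6 FGF1 mice and 271 to 416 CPM (median 364) in the 6 vehicle mice. The groups did not overlap, and the log2 fold change of 1.06 ± 0.12 had an FDR of 1.46e-06. Cluster 7, which carries Crym and Frzb, had 715 to 989 CPM (median 861) in 5 FGF1 mice against 216 to 544 CPM (median 368), a log2 fold change of 1.00 ± 0.14 (FDR = 5.84e-05). Cluster 10, with Fndc3c1 and Scn7a, had 483 to 835 CPM (median 658) against 271 to 526 CPM (median 351), a log2 fold change of 0.74 ± 0.16 (FDR = 0.0104). Here the groups overlapped. Thinned to 600 UMIs, 32.6 ± 3.27% against 18.7 ± 2.69% of cluster 0 cells held a Vim UMI, 36.4 ± 2.88% against 19.9 ± 5.33% in cluster 7 and 29.6 ± 6.10% against 20.1 ± 4.29% in cluster 10. In exact two-sided permutation tests over mice, adjusted over 24 shares, these differences had p = 0.0260, 0.0260 and 0.0346 (unthinned 58.1 against 37.0%, 72.9 against 49.3% and 60.2 against 46.2%, of which none passed: smallest adjusted p = 0.0866). As a cell type low in Vim, oligodendrocyte precursors held a Vim UMI in 4.65% of cells with FGF1 and 1.30% with vehicle after the same thinning, at median depths of 1138 and 1192 UMIs. The calls on shares were all lost when vehicle replicate 20, 22, 27 or 29 was left out. Cluster 7, with 462 assignments from all its mice, then has fewer, which raises the smallest p its test can reach. The loss can therefore not be laid to these mice alone.

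Nes and Synm in the tanycytes lay close in both groups. With the 3 clusters merged, Nes was 62.0 to 105 CPM with FGF1 and 45.2 to 74.4 CPM with vehicle (log2 fold change 0.27 ± 0.14, FDR = 0.277), and Synm was 78.2 to 120 CPM against 50.6 to 119 CPM (0.12 ± 0.15, FDR = 0.706). Gfap in merged tanycytes was 33.2 to 203 CPM against 32.2 to 80.6 CPM, with a log2 fold change of 0.82 ± 0.43 (FDR = 0.314). Merged Vim was 612 to 846 CPM against 284 to 466 CPM without overlap (1.02 ± 0.12, FDR = 3.74e-05). Astrocyte markers summed lower in the tanycytes of FGF1 mice, 2662 to 3454 against 3789 to 6133 CPM, while tanycyte markers summed to 2024 to 2793 against 1908 to 2184 CPM.

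Astrocytes need their clusters named beside every value, because most astrocytes of FGF1 mice were in cluster 4 (3412 cells, against 1531 in cluster 1) and most of those of vehicle mice in cluster 1 (7940 cells, against 697 in cluster 4), and Gfap itself leads cluster 4. Within cluster 1, Vim was 18.0 to 68.3 CPM (median 52.3) with FGF1 and 19.3 to 25.6 CPM (median 23.0) with vehicle, a log2 fold change of 1.05 ± 0.24 (FDR = 0.0217). The lowest FGF1 mouse was below all vehicle mice, and the call ended without FGF1 replicate 6, 21 or 36 or vehicle replicate 25 (FDR = 0.0562, 0.0515, 0.144 and 0.0619). After thinning, 2.70% against 1.23% of cluster 1 cells held a Vim UMI (unthinned 5.38 against 2.42%), which is no more than in clusters low in Vim: 4.65% against 1.30% in oligodendrocyte precursors, 4.99% against 1.44% in oligodendrocytes and 4.19% against 2.02% in microglia. The Vim call of cluster 1 alone therefore does not show whether vimentin changed within astrocytes, and the source of these UMIs was not tested. Gfap in cluster 1 was 27.3 to 197 CPM (median 86.7) against 37.0 to 69.1 CPM (median 42.3), a log2 fold change of 0.93 ± 0.32 with an FDR of 0.285. It passed with the batch as a block (0.96, FDR = 0.00241). The thinned shares for Gfap were 6.00% against 2.55% in cluster 1, beside 6.87% against 1.62% in oligodendrocytes. Within cluster 4, Gfap was 420 to 2042 CPM (median 739) with FGF1 and 403 to 2109 CPM (median 1065) with vehicle, a log2 fold change of -0.49 ± 0.49 (FDR = 0.873). Vim was 91.3 to 208 CPM against 16.4 to 157 CPM (0.50 ± 0.33, FDR = 0.734), with a Vim UMI in 6.26% against 4.45% of thinned cells (unthinned 12.5 against 9.24%). The share of cluster 4 cells with a Nes UMI after thinning was 0.691 ± 0.134% against 0.214 ± 0.248% (exact permutation test, adjusted p = 0.0390), from 51 and 4 UMIs. Clusters low in Nes held as much, with 0.721% against 0.303% in oligodendrocytes, 0.706% against 0.301% in their precursors and 0.784% against 0.444% in microglia, so no change of Nes within astrocytes is read from it. The source of these UMIs was not tested.

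With clusters 1 and 4 merged, a choice made after the data were seen, Gfap was 292 to 1568 CPM (median 471) in FGF1 mice and 64.7 to 313 CPM (median 118) in vehicle mice, a log2 fold change of 2.21 ± 0.53 (FDR = 0.0226), and vehicle replicate 22 gave the 313 CPM. Vim was 66.1 to 166 CPM (median 99.8) against 19.4 to 31.5 CPM (median 28.4), a log2 fold change of 1.92 ± 0.22 (FDR = 2.31e-05), without overlap. Oligodendrocyte precursors, which are low in Vim, had nearly the same levels and change (67.7 to 151 against 19.2 to 31.8 CPM, log2 fold change 1.94). The merged Vim value of whole cells therefore does not set astrocytes apart from them. Day 5 nuclei, from other mice (2 a group) and thinned to 1000 UMIs, held a Vim UMI in 8.34% against 2.26% of astrocytes. The shares were 1.04% against 1.05% in oligodendrocyte nuclei and 0.837% against 0.388% in microglia nuclei. In the merged whole-cell astrocytes Nes was 7.65 to 13.03 CPM against 0 to 9.77 CPM (0.87 ± 0.33, FDR = 0.0863) and Synm 6.70 to 23.4 CPM against 10.8 to 20.5 CPM (-0.27 ± 0.27, FDR = 0.568). Tanycyte markers summed to 130 to 299 CPM in the merged astrocytes of FGF1 mice and 89.7 to 125 CPM in those of vehicle mice. Ependymal markers summed to 287 to 418 against 214 to 367 CPM, and the part of either in the Vim values was not tested. The merged background was 6.55% of genes called higher and 6.06% called lower. A change in how the cells divide between the clusters and a change of RNA per cell cannot be told apart in the merged values.

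In ependymal cells of Day 5 no member passed the test. Vim was 642 to 959.9 CPM (median 765) with FGF1 and 538 to 745 CPM (median 587) with vehicle, a log2 fold change of 0.35 ± 0.14 (FDR = 0.242; DESeq2 adjusted p = 0.0462). Gfap was 22.4 to 225 CPM against 20.3 to 49.7 CPM (1.17 ± 0.43, FDR = 0.271), Nes 32.1 to 69.9 CPM against 46.3 to 89.5 CPM (-0.31 ± 0.19, FDR = 0.509) and Synm 128 to 352 CPM against 226 to 352 CPM (-0.04 ± 0.15, FDR = 0.962). The highest Gfap and the lowest Synm value with FGF1 are both from replicate 6, which had 19 ependymal cells with 7 Gfap and 4 Synm UMIs, whereas the other FGF1 mice had 170 to 627 cells. edgeR called 0 of the 4 members, Vim and Gfap had an unadjusted p under 0.05, and DESeq2 called Vim alone; of all genes tested in these cells 0.535% were called higher and 0.743% lower.

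**Figure D3:**
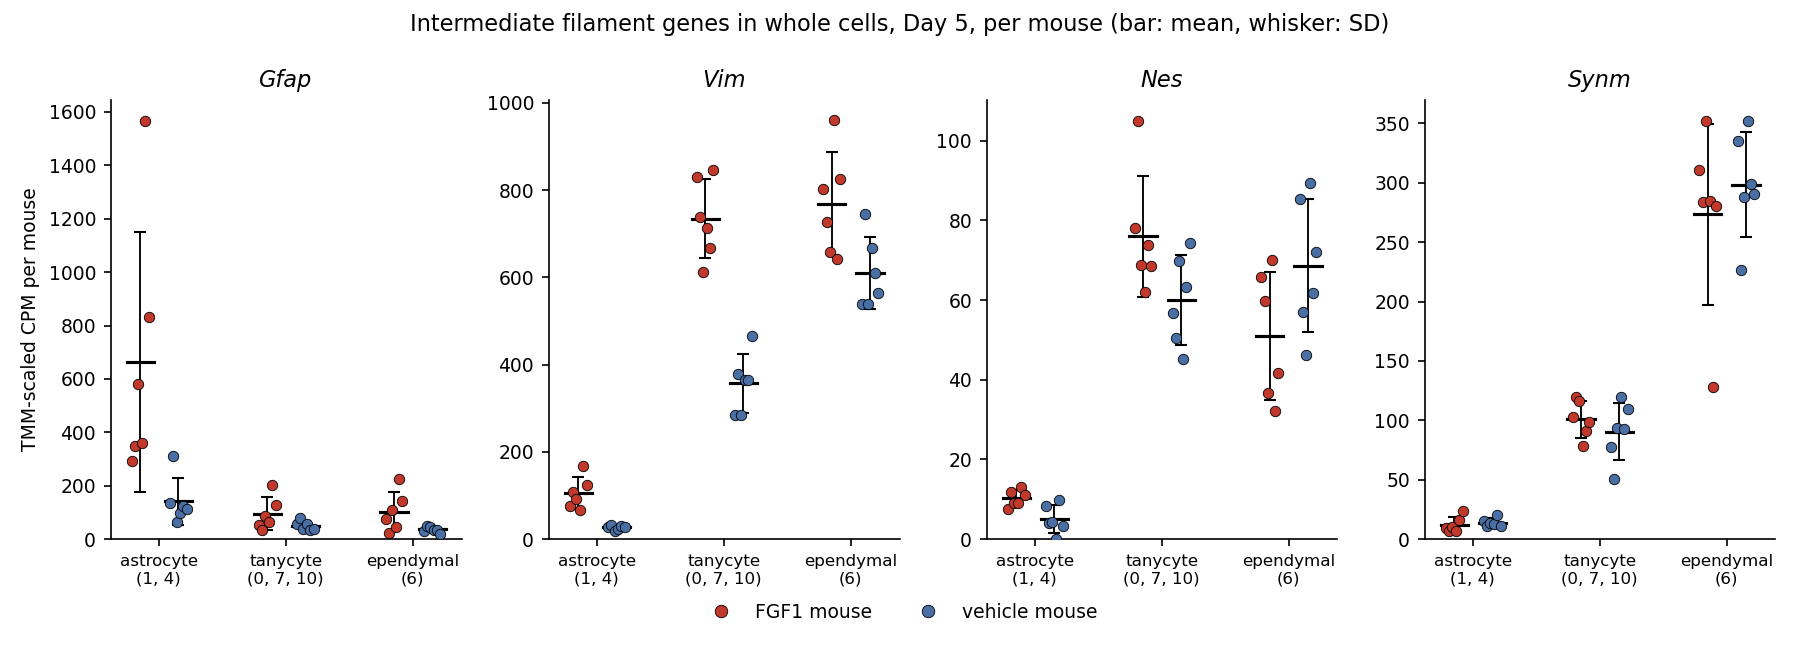
TMM-scaled CPM per mouse (vertical axes) of the 4 genes in whole-cell astrocytes, tanycytes and ependymal cells on Day 5 (horizontal axes, cluster numbers in brackets), FGF1 mice in red and vehicle mice in blue, bar for the mean and whisker for the SD. Vim of tanycytes and of astrocytes separates the groups in all mice (612 to 846 against 284 to 466 CPM and 66.1 to 166 against 19.4 to 31.5 CPM), while Synm overlaps in each type.

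The effect of FGF1 was then compared between types within each mouse, as the difference of log2(CPM + 1) between 2 merged types, with 12 exact two-sided permutation tests over the 12 mice (924 assignments). Like those for the shares above, these assignments did not keep together the deposited batches, which hold 1 FGF1 and 1 vehicle mouse each. Tests within batches were not run. The log2 change of Gfap was larger in astrocytes than in tanycytes by 1.40 ± 0.25 (exact permutation test, adjusted p = 0.0130). Gfap had log2 fold changes of 2.07 ± 0.54 in cluster 2 oligodendrocytes and 1.71 ± 0.60 in precursors (edgeR FDR = 0.132 and 0.184). With oligodendrocyte clusters 2, 11 and 12 merged the value was 1.67 ± 0.57 (edgeR FDR = 0.150). Beside the 2.21 of astrocytes, the fold changes alone are not read as particular to astrocytes. After thinning, 22.1% of merged astrocytes with FGF1 and 4.55% with vehicle held a Gfap UMI. The shares were 6.87% against 1.62% in cluster 2 and 4.68% against 1.27% in precursors. Whether astrocyte RNA was in those cells was not tested. Vim rose more in tanycytes than in ependymal cells (0.72 ± 0.13, permutation adjusted p = 0.0173). The log2 change of Vim was larger in astrocytes than in tanycytes (0.83 ± 0.24, permutation adjusted p = 0.0208) and than in ependymal cells (1.55 ± 0.28, permutation adjusted p = 0.0130). That larger change starts from a vehicle level as low as in oligodendrocytes and their precursors. The log2 fold changes of Vim were 1.87 in cluster 2 oligodendrocytes and 1.94 in precursors, much like the 1.92 of astrocytes. With oligodendrocyte clusters 2, 11 and 12 merged the value was lower, at 1.38 ± 0.24. The larger Vim change of whole cells is therefore not read as particular to astrocytes. The change of Nes was larger in astrocytes than in ependymal cells by 1.67 ± 0.63 (permutation adjusted p = 0.0208), where the astrocyte level rests on 62 and 51 UMIs. Of the 62 in FGF1 mice, 51 lie in cluster 4, whose Nes share was no higher than in clusters low in Nes, so this is not read as an astrocyte effect either. The Nes difference missed the threshold without FGF1 replicate 6 (1.49, permutation adjusted p = 0.0623), fell to 1.14 without vehicle replicate 27, which had no Nes UMI in 466 astrocytes, and was 0.85 on the log2(CPM + 10) scale. The astrocyte values include the difference between clusters 1 and 4 described above. Between tanycytes and ependymal cells the Gfap difference was -0.46 ± 0.27 (exact permutation, adjusted p = 0.118). The difference of 0.94 ± 0.42 between astrocytes and ependymal cells for Gfap did not pass (exact permutation, adjusted p = 0.0742). It passed on the log2(CPM + 10) scale (1.00, permutation adjusted p = 0.0416), without FGF1 replicate 10 (0.0390) and without vehicle replicate 22 (0.0433). For Nes, the difference of 0.78 ± 0.30 between tanycytes and ependymal cells missed the threshold (permutation adjusted p = 0.0519, and 0.0216 to 0.108 under the alternatives). The Nes difference of 0.89 ± 0.46 between astrocytes and tanycytes did not pass either (permutation adjusted p = 0.0942). It passed without vehicle replicate 20 (1.09, permutation adjusted p = 0.0433) and without vehicle replicate 29 (1.10, permutation adjusted p = 0.0346), and was 0.51 without vehicle replicate 27 and 0.17 on the log2(CPM + 10) scale. Synm gave no difference past the threshold between any of the types, with log2 differences of -0.46 ± 0.35, -0.10 ± 0.41 and 0.37 ± 0.23. On Day 1 the fitted Vim effects were 4.20 in astrocytes, 2.79 in tanycytes and 2.44 in ependymal nuclei, given as values because an exact test of 3 against 3 cannot fall below 0.10.

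**Figure D4:**
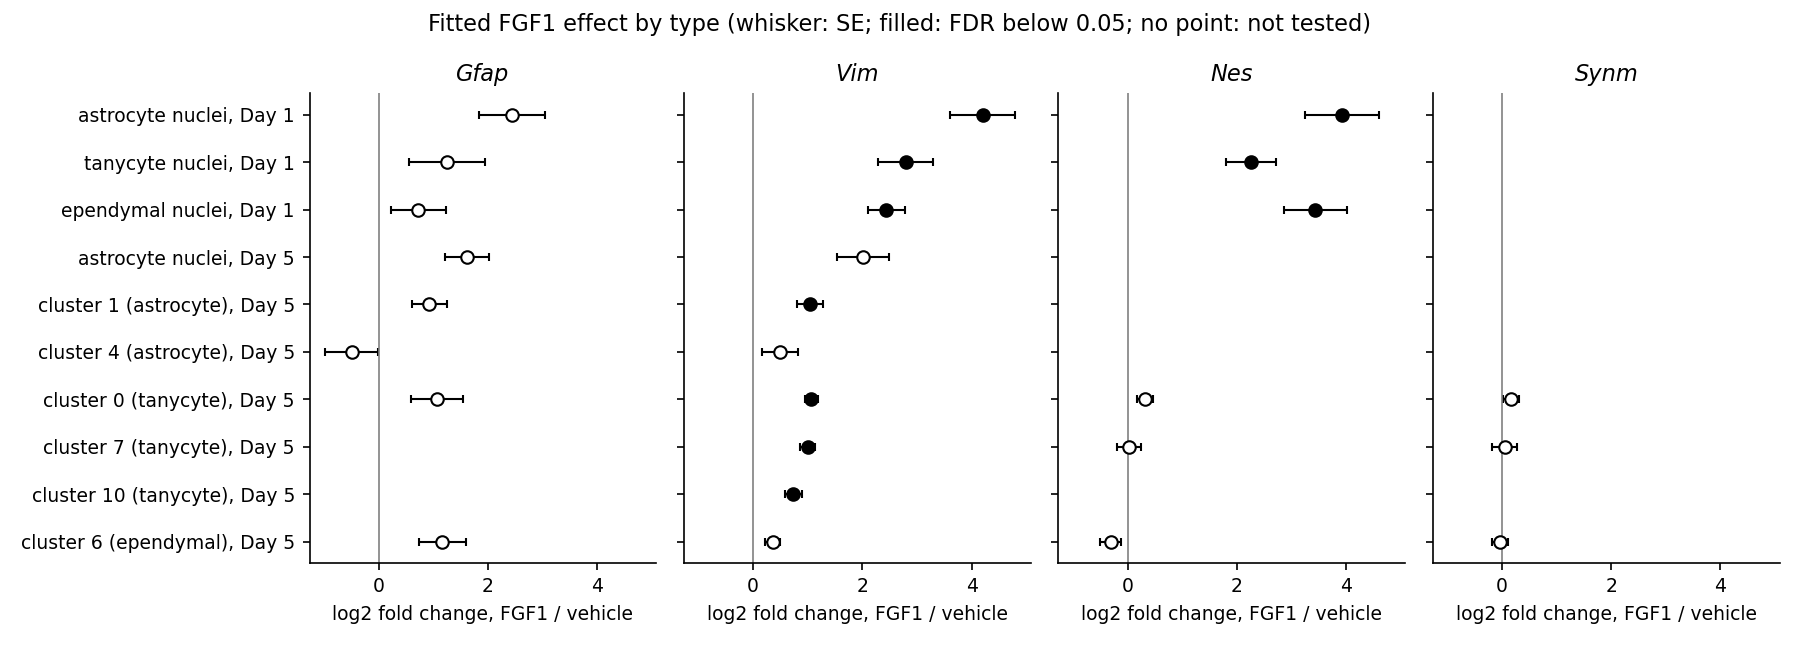
Log2 fold change of FGF1 over vehicle (horizontal axes) of the 4 genes in each type or cluster (vertical axis), with its SE as a whisker, filled points for an FDR below 0.05 and no point where a gene was not tested. Vim is above 0 everywhere, from 4.20 in Day 1 astrocyte nuclei to 0.35 in Day 5 ependymal cells. Nes is raised on Day 1 and between -0.31 and 0.32 in the single whole-cell clusters where it was tested, and Gfap has no filled point in these types. Clusters 1 and 4 differ in Gfap itself, and merged astrocytes, not drawn, gave Gfap a log2 fold change of 2.21 (edgeR FDR = 0.0226).

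**Figure D5:**
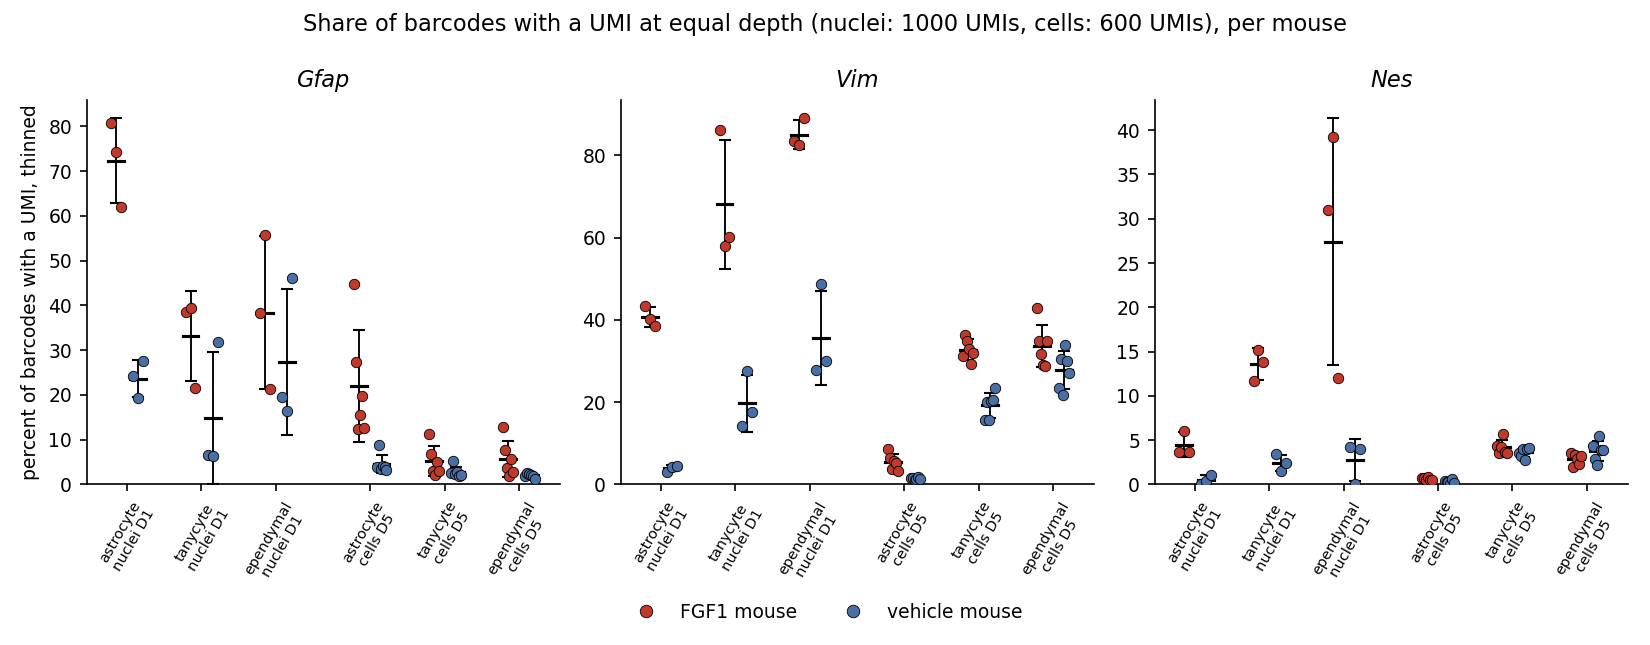
Percent of barcodes with at least 1 UMI of Gfap, Vim or Nes (vertical axes) per mouse, after thinning to 1000 UMIs per nucleus on Day 1 and 600 UMIs per whole cell on Day 5 (horizontal axes, by type), FGF1 in red, vehicle in blue, bar for the mean and whisker for the SD. Vim reached 40.7% of astrocyte nuclei with FGF1 and 3.93% with vehicle on Day 1, where oligodendrocyte nuclei, not drawn, had 5.57% and 0.698%. On Day 5 it was found in 5.53% and 1.43% of whole-cell astrocytes, close to the 4.65% and 1.30% of oligodendrocyte precursors (not drawn); the 2 assays differ in depth and cohort and are not compared.

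Whole-cell clusters outside the astrocytes and the ventricular lining also carried more Vim UMIs with FGF1. In oligodendrocytes (cluster 2) Vim was 70.5 to 144 CPM (median 122) against 20.8 to 56.4 CPM (median 26.7), a log2 fold change of 1.87 ± 0.23 (FDR = 0.000143, background 0.557%). In oligodendrocyte precursors (cluster 5) it was 67.7 to 151 CPM (median 101) against 19.2 to 31.8 CPM (median 25.5), a log2 fold change of 1.94 ± 0.21 (FDR = 1.23e-08, background 1.2%). Gfap was 46.6 to 325 against 12.7 to 48.8 CPM in oligodendrocytes and 27.5 to 234 against 13.1 to 43.2 CPM in precursors, and passed in neither. For Vim the groups of precursors and of oligodendrocytes were free of overlap, and for Gfap they overlapped. Endothelial cells (cluster 3), which carry vimentin of their own, had 446 to 655 CPM against 287 to 559 CPM (0.55 ± 0.13, FDR = 0.0301, background 0.363%). Their Gfap was 44.9 to 161 CPM against 21.0 to 38.1 CPM (1.26 ± 0.24, FDR = 0.0113). After thinning, 4.64% against 1.92% of endothelial cells held a Gfap UMI, beside 4.68% against 1.27% of precursors and 4.91% against 2.35% of microglia. The source of these Gfap UMIs was not tested, and the call is not read as particular to endothelial cells. Nes and Synm of endothelial cells had log2 fold changes of 0.02 ± 0.13 and 0.18 ± 0.15 (FDR = 0.977 and 0.672). Microglia (cluster 8) had 41.3 to 258 CPM of Vim against 14.9 to 79.6 CPM (1.81 ± 0.45, FDR = 0.0925).

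Tanycyte markers moved with some of these values: their sum in oligodendrocytes was 191 to 504 CPM with FGF1 and 55.5 to 191 CPM with vehicle, in endothelial cells 223 to 502 against 189 to 301 CPM and in precursors 165 to 258 against 148 to 242 CPM. All 10 tanycyte markers had a UMI in endothelial cells of both groups. Astrocyte markers did not: in oligodendrocytes they summed to 2806 to 4423 against 2662 to 4905 CPM, in endothelial cells to 1497 to 2884 against 2504 to 4135 CPM and in precursors to 2221 to 3534 against 2299 to 4389 CPM. The part of tanycyte RNA in the Vim values of these clusters was not tested.

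The genes that work with the filaments were read from lists of 20 further intermediate filament genes, 12 linkers, 12 chaperone and turnover genes, 12 kinases and phosphatases and 14 regulators. In Day 1 astrocyte nuclei, where 1.39% of all genes tested were called higher, 1 of 6 tested chaperone and turnover genes rose. This was Hspb1, a small heat shock protein that binds filaments, from 1.22 ± 2.11 to 284 ± 156 CPM (log2 fold change 6.94 ± 0.79, FDR = 0.00285). Of 11 regulators 1 rose, Jun, a subunit of AP-1, from 3.40 ± 4.41 to 114 ± 81.4 CPM (log2 fold change 5.01 ± 0.81, FDR = 0.0122). Single vehicle mice had 0 to 3.65 CPM of Hspb1 and 0 to 8.38 CPM of Jun, near the floor, so the size of both folds is uncertain. None of the 7 linkers, 9 kinases and phosphatases or 2 other filament genes tested there passed. The median log2 fold change was 1.07 over the chaperone list and 0.53 over the regulators, beside -0.01 over all genes tested.

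In tanycyte nuclei of Day 1, where 5.38% of all genes were called higher and 3.76% lower, 1 of 9 regulators rose. It was Jun, by a log2 fold change of 4.54 ± 0.82 (FDR = 0.00449) from a low vehicle level of 0 to 12.6 CPM. Among 7 linkers tested, Plec, the plectin that cross-links filaments to other cytoskeletal parts, rose from 56.0 ± 7.00 to 141 ± 25.6 CPM (log2 fold change 1.33 ± 0.39, FDR = 0.0496), and Dtna, which encodes alpha-dystrobrevin of the dystrophin complex, fell from 1212 ± 147 to 452 ± 104 CPM (-1.45 ± 0.37, FDR = 0.0270). The medians were -0.41 for linkers and 0.32 for regulators, beside 0.03 for all genes. In ependymal nuclei Plec rose from 146 ± 29.0 to 512 ± 107 CPM (1.85 ± 0.33, FDR = 0.000883), and the linkers Dtna and Dmd, the dystrophin gene, fell (-1.37 ± 0.32 and -1.10 ± 0.32, FDR = 0.00636 and 0.0198), so 1 of 7 linkers rose and 2 fell. The share over all genes tested in ependymal nuclei was 10.2% higher and 8.86% lower. Both tested chaperones of ependymal nuclei rose, Hspa8 by 2.10 ± 0.34 (FDR = 0.000468) and its co-chaperone Bag3 by 3.76 ± 0.86 (FDR = 0.00520), the latter from a vehicle level of 0 to 29.5 CPM. The nuclear lamin gene Lmna, the single other filament gene tested there, rose from 156 ± 9.43 to 476 ± 128 CPM (1.65 ± 0.33, FDR = 0.00213). On Day 5, 0 of the 35 listed genes tested in astrocyte nuclei passed.

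In whole-cell astrocytes of Day 5, with clusters 1 and 4 merged, 4 of 9 chaperone and turnover genes rose and none fell, where 6.55% of all genes tested were called higher and 6.06% lower. The 3 with the lowest FDR were Capn2, a calpain protease (log2 fold change 0.75 ± 0.13, FDR = 0.000337), the small heat shock gene Hspb8 (1.198 ± 0.22, FDR = 0.00105) and Bag3 (0.84 ± 0.19, FDR = 0.00345). Plec rose as 1 of 8 linkers, from 33.7 ± 4.57 to 61.5 ± 8.39 CPM (0.83 ± 0.14, FDR = 0.000172), the kinase gene Pak2 as 1 of 9 kinases and phosphatases (0.50 ± 0.13, FDR = 0.00881). Of 12 regulators Stat3 rose (0.47 ± 0.16, FDR = 0.0491) and Sox11 fell (-0.68 ± 0.17, FDR = 0.00770). Of 7 other filament genes 2 fell, the neuronal filament genes Ina and Nefl (-1.28 ± 0.25 and -1.17 ± 0.29, FDR = 0.00114 and 0.0188). None of the 5 lists had a called gene within cluster 1 or within cluster 4 in edgeR.

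In whole-cell tanycytes, 4 of 10 chaperone and turnover genes rose: alpha-B crystallin (Cryab) from 89.1 ± 14.5 to 145 ± 24.6 CPM (0.68 ± 0.12, FDR = 0.00258), Bag3 (1.21 ± 0.24, FDR = 0.00542) and Hspb8 (1.14 ± 0.25, FDR = 0.0126) were the 3 with the lowest FDR. The list's median was 0.53 beside -0.01 over all genes. At the same time 2.29% of all genes tested in tanycytes were called higher and 2.79% lower. Of 8 other filament genes 3 fell, Nefl, Nefm and Ina (-1.38 ± 0.29, -1.08 ± 0.28 and -1.23 ± 0.31, FDR = 0.0152, 0.0213 and 0.0240), which are neuronal. The 7 neuron markers summed to 139 to 273 CPM in tanycytes of FGF1 mice against 239 to 454 CPM in those of vehicle mice. They summed to 119 to 267 against 259 to 563 CPM in astrocytes, and the part of neuron RNA in the neurofilament values was not tested. None of 8 linkers, 9 kinases and phosphatases or 12 regulators passed in tanycytes, and none of the 36 listed genes tested passed in ependymal cells.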

How the data were processed

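Nuclei and whole cells were captured with the 10x 3′ v2 chemistry, 1 mouse per library. The authors aligned reads with Cell Ranger 1.2 to the mouse GRCm38 (mm10) genome, with introns included for nuclei, and deposited raw UMI counts per gene and barcode. The submitters' processing notes also list GRCh38. The authors also deposited, per barcode, mitochondrial and ribosomal UMIs in percent, a batch, and a cell type (nuclei) or Seurat cluster (whole cells). In the files, 911 nuclei and 4382 cells lie above the mitochondrial or ribosomal limit given in the methods. No doublet caller was used for nuclei, and the authors removed Scrublet doublets from whole cells.

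Of 24965 nuclei and 54890 cells, counts were summed per mouse and type, with at least 10 barcodes per mouse. Summed counts were scaled by TMM and tested with edgeR 4.0.16 (quasi-likelihood, R 4.3.3) over all genes kept by its filter, with Benjamini-Hochberg adjustment at an FDR of 0.05. The SE is the size of the log2 fold change over the root of F. Whole-cell clusters were named from at least 3 markers, and clusters of 1 name were merged only after the data had been seen. Single values were tested with exact permutation in Python 3.11.15 (scipy 1.17.1), and DESeq2 1.42.0 was an alternative. Intervals and limits cover counting error only. The scripts were tested on simulated data. At most 3 called genes per list and comparison are named, those with the lowest FDR, and the 3 genes most like a member by correlation. The members and lists were chosen with earlier results of these data known.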

Additional observations from a re-analysis of the deposited data

Results flagged for a closer look

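Among 24 groups of 6 mice examined for a value far from the rest, of which chance marks about 1 in 20, 2 stood apart. Gfap in the merged astrocytes of vehicle replicate 22 was 312.8 CPM, against 64.7 to 134 CPM in the other vehicle mice. Synm in the ependymal cells of FGF1 replicate 6 was 128.4 CPM, against 280.6 to 352 CPM in the other FGF1 mice. It rests on 4 Synm UMIs in 19 cells, where the other FGF1 mice had 170 to 627 cells.

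The effect of FGF1 differed between merged types of the whole cells in 5 of 12 exact permutation tests, whose assignments did not keep the deposited batches together. The log2 differences were 1.40 for Gfap and 0.83 for Vim between astrocytes and tanycytes. They were 1.55 for Vim and 1.67 for Nes between astrocytes and ependymal cells, and 0.72 for Vim between tanycytes and ependymal cells. The Vim levels and change of whole-cell astrocytes were close to those of oligodendrocyte precursors (log2 fold changes 1.92 and 1.94). The Nes share of cluster 4 astrocytes, which held 51 of their 62 UMIs with FGF1, was no higher than in clusters low in Nes. Neither whole-cell value is therefore read as an astrocyte effect. In thinned Day 5 nuclei a Vim UMI was found in 8.34% against 2.26% of astrocytes and 1.04% against 1.05% of oligodendrocytes. The log2 fold change of Gfap was 2.07 in cluster 2 oligodendrocytes and 1.71 in precursors, beside 2.21 in astrocytes. With the oligodendrocyte clusters merged it was 1.67, and none of these values outside astrocytes passed the test. The thinned share with a Gfap UMI was 22.1% against 4.55% in merged astrocytes and 6.87% against 1.62% in cluster 2. The Nes difference was 0.85 on the log2(CPM + 10) scale and 1.14 without vehicle replicate 27.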

How the results depend on the processing

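Of the 9 tested combinations on Day 1, 6 were called. After thinning 6 could be tested, Gfap and Vim in each type, and 3 were called, all of them Vim; Nes had too few UMIs left for a test. Leaving out single mice gave 2 to 8, the 2 without vehicle replicate 1 and the 8 without vehicle replicate 3. With the replicate block of label numbers 1, 2 and 3 the count was 6. Those numbers were not taken to pair mice, since same-numbered mice correlated in their deviations at -0.50 to 0.52. The Day 5 count of 0 in nuclei became 1 with DESeq2, 1 with RLE scaling, and 2 without the low-count filter, without barcodes over the authors' mitochondrial or ribosomal limit, or after thinning. It was 0 to 2 when single mice were left out, which leaves 1 mouse in an arm, assumed to vary like the other arm. The 4 shares called in whole cells were 0 without thinning and 0 to 7 without single mice. The cause was not tested. The counts for whole cells, the day difference and the cell type difference stayed within 1.5 times the main count under the planned settings. Of the values of single genes by setting, 441 kept their direction and side of the threshold, 18 newly passed it, 14 no longer did, and 10 turned direction, none of them called. Synm in cluster 6 (-0.04) turned to 0.097 after thinning and ranged from -0.11 to 0.0086 without single mice. Synm in cluster 7 (0.05) turned to -0.0048 with the batch as a block and ranged from -0.034 to 0.36 without single mice, and Nes in cluster 7 (0.03) from -0.12 to 0.26. DESeq2 gave no adjusted p for some genes, which were left out. Synm on Day 1 and Nes on Day 5 had too few UMIs in astrocyte nuclei for a test.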
